A study of Mus musculus with 24 samples.

Results

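The ubiquitin-conjugating enzymes, or E2s, were followed in mouse calf muscle as the genes whose annotated symbol starts with Ube2. The array annotation gave 33 such genes with 59 probes, and 27 of the genes kept 43 probes after a detection filter (detection p under 0.05 on at least 3 of the 24 arrays). These 27 genes were set in a table of 16262 features, 11010 of them named genes, made from 46632 probes. Ube2b, Ube2c, Ube2dnl2, Ube2e3, Ube2u and Ube2v2 had probes but none that passed the filter, and the probe of Ube2b was detected on 1 of the 24 arrays. Ube2m, Ube2d2b and Ube2d4 were not analysed here. The symbol rule also took in Ube2cbp, which encodes a ubiquitin ligase that binds an E2 and is not itself an E2.

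Total RNA of triceps surae, the calf muscle group, came from C57/Bl6 mice aged 4 months. Each of 8 groups had 3 arrays. They were MuRF1 knockout mice given dexamethasone (KO DEX) for 3 or 14 days, untreated MuRF1 knockout mice (KO untreated) of the 3-day and 14-day arms, wild type mice given dexamethasone (WT DEX) for 3 or 14 days, and untreated wild type mice (WT untreated) of both arms. Dexamethasone, a synthetic glucocorticoid that wastes muscle, was given at 3 mg/kg in drinking water, and the untreated mice were littermates kept in parallel without it. The labels do not describe the knockout allele or say whether each array is a separate animal, so the p-values reflect only how far these arrays spread, which can be a technical spread. In bulk muscle RNA, fewer cells of a type and less RNA per cell cannot be told apart.

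Attachment of ubiquitin runs through a cascade in which an E1 activates ubiquitin, an E2 carries it as a thioester, and an E3 ligase brings the charged E2 to a substrate. MuRF1, encoded by Trim63, is a RING E3 of muscle that holds an E2 but forms no thioester itself, so the E2 it meets can set the kind of chain that is built. In binding assays with human proteins, UBE2E1, UBE2G1, UBE2J1, UBE2J2 and UBE2L3 have been found to bind MuRF1, and UBE2D enzymes are its usual partners in test-tube reactions.

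Median raw signal per array ran between 81.0 and 101.9, and 29.0% to 36.1% of probes were detected on an array. Trim63 read 4.46 to 5.16 log2 units on the 12 knockout arrays, 4 of which detected it, and 8.07 to 9.95 on the 12 wild type arrays. The 9 measured striated muscle markers were detected on all 24 arrays. Array 3 of the KO DEX 3-day group stood apart from the rest, at 70.6 on the first principal component where the others lay between -32.0 and 23.8. Several of the results that use this array, but not all, are given without it as well. Of the 27 representative probes, the brightest kept probe of each gene, 20 were detected on all 24 arrays and 3 on fewer than 12 (Ube2r2, Ube2t and Ube2w).

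At most 4 of the 27 genes passed the test in any comparison, the test being limma's at a Benjamini-Hochberg adjusted p under 0.05 over all 16262 features. With dexamethasone against no treatment at 3 days, 1 of 27 passed in the knockout, Ube2j2, which rose, where 5.37% of all features passed. In wild type at 3 days 3 of 27 passed, with Ube2g2 and Ube2t higher and Ube2e2 lower, against 3.87% of all features (1.94% higher and 1.93% lower). At 14 days none of the 27 passed in the knockout, where 3.27% of features did. There 3 members had an unadjusted p of limma under 0.05, for which no share of all features is given here. In wild type at 14 days 1 passed, Ube2g1, which fell, against 3% of features. Averaged over the 4 pairs of groups, 4 of 27 passed (Ube2g2 higher, and Ube2e2, Ube2l6 and Ube2n lower), against 13.1% of features (5.84% higher and 7.3% lower). The median log2 fold change of the 27 genes in this average was -0.01, beside 0.00 over all features. Without the array that stood apart, Ube2j1 passed in the average as well, and Ube2n passed in the knockout at 3 days in place of Ube2j2. The calls over all 16262 features then went from 2136 to 2383 in the average. In the knockout at 3 days they went from 873 to 527.

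With knockout against wild type, 1 of 27 passed under dexamethasone at 3 days, Ube2t, which fell, where 0.517% of features passed. The brighter side of that comparison, the WT DEX arrays, is among the groups through which Ube2t passed the detection filter. None passed under dexamethasone at 14 days (0.603% of features), untreated in the 3-day arm (0.326%) or untreated in the 14-day arm (0.351%). In these 3 comparisons limma gave 6, 2 and 3 members an unadjusted p under 0.05. All shares of features in this paragraph are at the adjusted threshold, and none at an unadjusted p is given here. The unadjusted counts thus cannot be read as particular to the Ube2 genes. In the average of the 4 genotype pairs 0 passed, against 3.69% of features, and 5 had an unadjusted p under 0.05. The tests of whether the dexamethasone effect differed between genotypes called 0 members at 3 days (0% of features) and 0 at 14 days (0.0123%), with 2 and 4 at an unadjusted p under 0.05. The tests of whether it differed between 14 and 3 days called 0 members in the knockout (0.129% of features) and 0 in wild type (0.148%), with 5 and 6 at an unadjusted p under 0.05.

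Groups of 3 arrays were also checked for overlap, with the share of all features whose groups did not overlap in parentheses. With dexamethasone against no treatment the groups did not overlap for 5 members in the knockout at 3 days (19.2% of all features), 4 in wild type at 3 days (22.6%), 4 in the knockout at 14 days (17.3%) and 5 in wild type at 14 days (19.6%). With knockout against wild type they did not overlap for 4 members under dexamethasone at 3 days (15.2%), 3 in the untreated 3-day arm (13.2%), 7 under dexamethasone at 14 days (18.5%) and 2 in the untreated 14-day arm (13.9%).

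**Figure D1:**
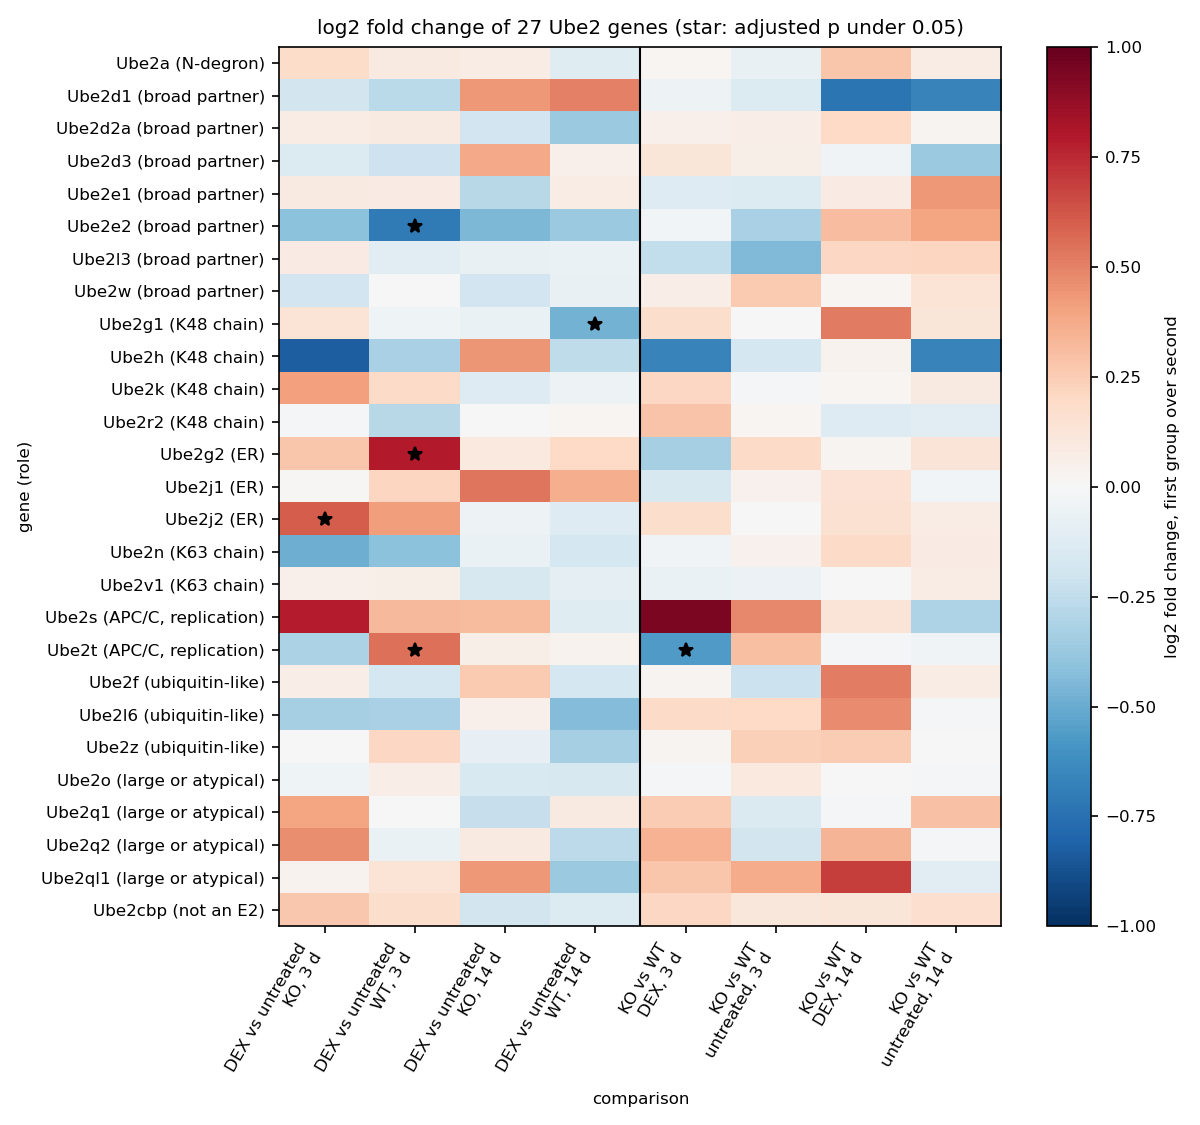
Each cell is the log2 fold change of one of the 27 genes (rows, ordered by role) in one of 8 comparisons (columns), on a colour scale between -1 and 1, with a star where the adjusted p of limma was under 0.05. The 6 stars lie on Ube2e2, Ube2g1, Ube2g2, Ube2j2 and Ube2t, the last of these starred in 2 columns.

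The intervals bound the change in array signal, given the spread of these arrays. For probes near background, Ube2r2, Ube2t and Ube2w among them, they do not bound a change in RNA. The 95% interval of the averaged dexamethasone effect lay within 2-fold in either direction for 27 of 27 genes and within 1.5-fold for 24. For the averaged genotype effect the counts were the same, 27 and 24. In single comparisons of 3 arrays with 3, between 24 and 26 genes had an interval within 2-fold and between 14 and 19 within 1.5-fold.

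The 3 members that fell in the average over the 4 dexamethasone pairs, Ube2e2, Ube2l6 and Ube2n, are shown by their promoter windows, because they are the members that moved the same way. Each window is 300 bases from RefSeq (GRCm38.p6), 250 before the start site and 50 after it. Capitals mark CG dinucleotides, and each run reads 5′ to 3′ on the strand of the gene.
Ube2e2, chr14:18893722-18894021, minus strand: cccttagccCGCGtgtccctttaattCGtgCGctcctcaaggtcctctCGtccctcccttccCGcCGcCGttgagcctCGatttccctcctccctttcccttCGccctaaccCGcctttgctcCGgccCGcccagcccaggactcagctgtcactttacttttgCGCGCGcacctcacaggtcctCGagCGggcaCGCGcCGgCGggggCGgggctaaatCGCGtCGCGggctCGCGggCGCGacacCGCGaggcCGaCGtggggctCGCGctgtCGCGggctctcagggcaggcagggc
Ube2l6, chr2:84798578-84798877, plus strand: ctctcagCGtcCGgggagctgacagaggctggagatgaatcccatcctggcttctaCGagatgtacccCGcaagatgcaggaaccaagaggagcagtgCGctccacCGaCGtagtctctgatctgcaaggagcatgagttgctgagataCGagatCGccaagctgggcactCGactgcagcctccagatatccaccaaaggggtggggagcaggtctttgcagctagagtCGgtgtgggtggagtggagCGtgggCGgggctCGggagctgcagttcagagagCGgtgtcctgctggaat
Ube2n, chr10:95514912-95515211, plus strand: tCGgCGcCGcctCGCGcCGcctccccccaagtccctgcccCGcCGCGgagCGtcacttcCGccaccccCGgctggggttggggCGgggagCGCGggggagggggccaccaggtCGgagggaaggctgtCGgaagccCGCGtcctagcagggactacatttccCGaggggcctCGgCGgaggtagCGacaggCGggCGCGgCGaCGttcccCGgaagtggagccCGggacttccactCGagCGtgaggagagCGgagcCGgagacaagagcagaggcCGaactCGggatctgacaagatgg
The window shown for Ube2e2 held 39 CG dinucleotides and 70% G and C, that of Ube2n 36 and 72.67%, and that of Ube2l6 15 and 59.67%. Ube2e2 has a second window in the table, not shown, with 55 and 82.67%.

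The windows of the Ube2 genes varied in CG content. The 31 windows of the 23 members found in the table had a median of 30 CG dinucleotides and 70% G and C, where the 32851 windows searched had medians of 7 and 52.67%. They ran between 4 and 55 CG dinucleotides and between 43.67% and 82.67% G and C, and the only window of Ube2l3 held 10 and 52%. The core of the glucocorticoid response element, ACANNNTGT on either strand, was in 0 of the 31 windows and in 6.85% of all windows. TTTGAA, the cell cycle genes homology region, was in the windows of Ube2f and Ube2z and in 17.9% of all, and CCAAT, the CCAAT box, was in 5 of the 31 and in 37.4% of all. These are matches of letters within 300 bases and say nothing of sites elsewhere. Ube2d2a, Ube2g2, Ube2o and Ube2w had no window.

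Among the broad partners, E2s that work with many RING or HECT ligases, 1 of 7 measured genes, Ube2e2, fell in the averaged dexamethasone effect, where 7.3% of all features fell. Ube2e2 carries ubiquitin for RING ligases and has an N-terminal extension that the Ube2d enzymes lack. Ube2e2 at 3 days read 5.80, 5.92 and 5.74 log2 units in KO DEX muscle, against 6.55, 6.21 and 5.92 in KO untreated muscle. In wild type at 3 days Ube2e2 read 5.66, 5.95 and 5.92 with DEX and 6.71, 6.52 and 6.43 untreated. The treated arrays lay below the untreated ones in each genotype, by a wide gap in wild type and by a narrow one in the knockout. Ube2e2 at 14 days read 6.19, 5.86 and 6.30 in KO DEX muscle, against 6.63, 6.71 and 6.37 in KO untreated muscle. In wild type at 14 days it read 5.95, 5.51 and 5.95 with DEX and 6.13, 5.87 and 6.53 untreated. The groups stayed apart in the knockout and overlapped in wild type at this time.

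The averaged log2 fold change of Ube2e2 was -0.49 (SE 0.0908, 12 arrays against 12), with an adjusted p of limma of 0.000454, and it was negative in all 4 pairs. The single changes were -0.41 in the knockout and -0.71 in wild type at 3 days, and -0.45 and -0.37 in the same genotypes at 14 days. Only the wild type change at 3 days passed alone (adjusted p of limma 0.0242), and leaving out any 1 of 5 of its 6 arrays ended that call. Ube2e2 read 0.09 in the averaged genotype effect, with a 95% interval of -0.10 to 0.28. Ube2e2 had 1 kept probe, so the fall rests on 1 set of bases.

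Ube2d1 encodes a member of the family most used with RING ligases in test-tube reactions. Ube2d1 at 3 days read 6.26, 6.32 and 5.94 in KO DEX, against 6.15, 6.23 and 6.67 in KO untreated muscle. With wild type mice the 3-day values were 6.47, 6.47 and 5.72 with DEX and 6.76, 6.40 and 6.31 untreated. These groups overlapped. Ube2d1 at 14 days read 6.70, 6.87 and 6.48 in KO DEX, against 6.82, 5.57 and 6.35 in KO untreated muscle. Wild type values at 14 days were 7.05, 7.91 and 7.30 with DEX and 6.98, 7.09 and 6.68 untreated. At 14 days 5 of the 6 wild type arrays lay above all 6 knockout arrays. The averaged genotype change of Ube2d1 was -0.40 (SE 0.132, adjusted p of limma 0.093), the largest in size among the 27 genes, and it did not pass the test.

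Ube2d2a, the gene of the enzyme named Ube2d2 in other mammals, at 3 days read 8.76, 8.65 and 8.89 in KO DEX, against 8.82, 8.64 and 8.61 in KO untreated muscle. Its 3-day wild type values were 8.67, 8.65 and 8.83 with DEX and 8.50, 8.65 and 8.72 untreated. Treated and untreated arrays overlapped in both genotypes. Ube2d2a at 14 days read 8.69, 8.70 and 8.50 in KO DEX, against 8.79, 8.80 and 8.88 in KO untreated muscle. In WT mice of the 14-day arm it read 8.36, 8.43 and 8.50 with DEX and 8.86, 8.86 and 8.68 untreated. At 14 days the treated arrays lay below the untreated ones in both genotypes. The log2 fold change was -0.19 in the knockout and -0.37 in wild type, neither past the test (adjusted p of limma 0.496 and 0.11), and the second probe of the gene gave -0.15 in wild type.

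Ube2e1, close kin of Ube2e2, at 3 days read 6.40, 6.44 and 6.78 in KO DEX, against 6.65, 6.42 and 6.28 in KO untreated muscle. Its wild type values were then 6.47, 6.80 and 6.75 with DEX and 6.51, 6.59 and 6.67 untreated. The 4 groups overlapped. Ube2e1 at 14 days read 6.24, 6.44 and 6.41 in KO DEX, against 6.44, 6.89 and 6.59 in KO untreated muscle. Wild type muscle of that arm gave 6.08, 6.30 and 6.45 with DEX and 6.10, 6.00 and 6.52 untreated. The averaged dexamethasone change of Ube2e1 was -0.01, with a 95% interval of -0.17 to 0.16, where Ube2e2 gave -0.49, and the difference between the 2 genes was not tested. The genotype change of Ube2e1 in the untreated 14-day arm was 0.43 (adjusted p of limma 0.356).

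Ube2l3 serves HECT and RING-between-RING ligases such as parkin. Ube2l3 at 3 days read 10.46, 10.70 and 10.94 in KO DEX, against 10.80, 10.62 and 10.43 in KO untreated muscle. The wild type values beside these were 11.06, 10.81 and 10.96 with DEX and 11.04, 11.02 and 11.12 untreated. The untreated knockout arrays all lay below the untreated wild type arrays, a log2 difference of -0.44 that did not pass (adjusted p of limma 0.468). Ube2l3 at 14 days read 10.76, 10.55 and 10.88 in KO DEX, against 10.76, 10.85 and 10.82 in KO untreated muscle. Its 14-day wild type values were 10.45, 10.38 and 10.74 with DEX and 10.69, 10.76 and 10.33 untreated. At this time the untreated difference ran the other way, at 0.22 with an adjusted p of limma of 0.627. The other 2 broad partners, Ube2d3 and Ube2w, did not pass in any of the 14 comparisons.

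The 3 E2s of the endoplasmic reticulum, which ubiquitinate misfolded proteins exported from that compartment for degradation, all had positive averaged dexamethasone changes, as had 50.6% of all features, and 1 of the 3 passed, where 5.84% of all features were called higher. Without the array that stood apart 2 of the 3 passed, while calls over all features in either direction went from 2136 to 2383. The share of all features called higher without that array is not given here. Ube2g2 is the soluble one, recruited by membrane ligases. Ube2g2 at 3 days read 6.20, 6.10 and 6.21 in KO DEX, against 6.19, 6.03 and 5.48 in KO untreated muscle. In the wild type it read 6.49, 6.56 and 6.46 with DEX and 5.45, 5.70 and 5.98 untreated. The 3 WT DEX arrays lay above all 21 other arrays of the series. Ube2g2 at 14 days read 6.26, 5.67 and 5.87 in KO DEX, against 5.52, 6.06 and 5.92 in KO untreated muscle. The wild type 14-day arrays read 5.75, 5.96 and 6.00 with DEX and 6.12, 5.40 and 5.60 untreated. These groups overlapped in both genotypes.

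The log2 fold change of Ube2g2 was 0.79 in wild type at 3 days (SE 0.201, adjusted p of limma 0.0228). Leaving out any 1 of 5 of its 6 arrays ended that call, as did the authors' value table and the mean of kept probes (adjusted p of limma up to 0.191). The average was 0.34 (SE 0.101, adjusted p of limma 0.0236), positive in all 4 pairs. Its call was lost without WT untreated 3-day array 1, WT untreated 14-day array 2 or KO DEX 14-day array 1 (adjusted p of limma 0.0502 to 0.0531), without the detection filter (0.0519) and with the mean of kept probes (0.182). The knockout change at 3 days was 0.27, and the difference between genotypes did not pass (-0.52, adjusted p of limma 0.996). A second kept probe of Ube2g2, detected on 16 of 24 arrays, gave 0.22 in wild type at 3 days and 0.08 in the average, neither past the test.

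Ube2j1 is anchored in the reticulum membrane. Ube2j1 at 3 days read 5.63, 5.58 and 5.07 in KO DEX, against 5.16, 5.14 and 5.95 in KO untreated muscle. Wild type mice gave 5.66, 5.47 and 5.63 with DEX and 5.80, 5.05 and 5.26 untreated. These groups overlapped. Ube2j1 at 14 days read 5.81, 5.69 and 5.57 in KO DEX, against 5.55, 4.79 and 5.11 in KO untreated muscle. Wild type mice at this time gave 5.74, 5.58 and 5.33 with DEX and 4.93, 5.21 and 5.40 untreated. The knockout groups did not overlap and the wild type groups did. The averaged change was 0.28 (SE 0.113, adjusted p of limma 0.114) and did not pass, and a second probe gave 0.18. Without the array that stood apart the averaged change of Ube2j1 was 0.33 and passed (adjusted p of limma 0.0464).

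Ube2j2 is the other membrane-anchored enzyme. Ube2j2 at 3 days read 5.92, 6.26 and 6.56 in KO DEX, against 5.83, 5.63 and 5.48 in KO untreated muscle. With DEX the wild type read 6.22, 5.94 and 6.04, and without it 5.83, 5.50 and 5.63. All treated arrays lay above all untreated arrays at 3 days. Ube2j2 at 14 days read 5.72, 5.57 and 5.57 in KO DEX, against 5.64, 5.72 and 5.66 in KO untreated muscle. The wild type then read 5.42, 5.54 and 5.44 with DEX and 5.57, 6.01 and 5.21 untreated. The 14-day groups overlapped.

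The 3-day change of Ube2j2 was 0.60 in the knockout (SE 0.173, adjusted p of limma 0.0419) and 0.42 in wild type (adjusted p of limma 0.254), and the averaged change was 0.21 (adjusted p of limma 0.131). Leaving out any 1 of 11 of the 24 arrays, 4 of them its own, ended the knockout call, as did the authors' value table, no detection filter and the replicate block. The highest adjusted p of limma, 0.244, came without the array that stood apart, where the change was 0.45. At 14 days the changes were -0.05 and -0.13 in knockout and wild type, and the difference between times passed in neither genotype.

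**Figure D2:**
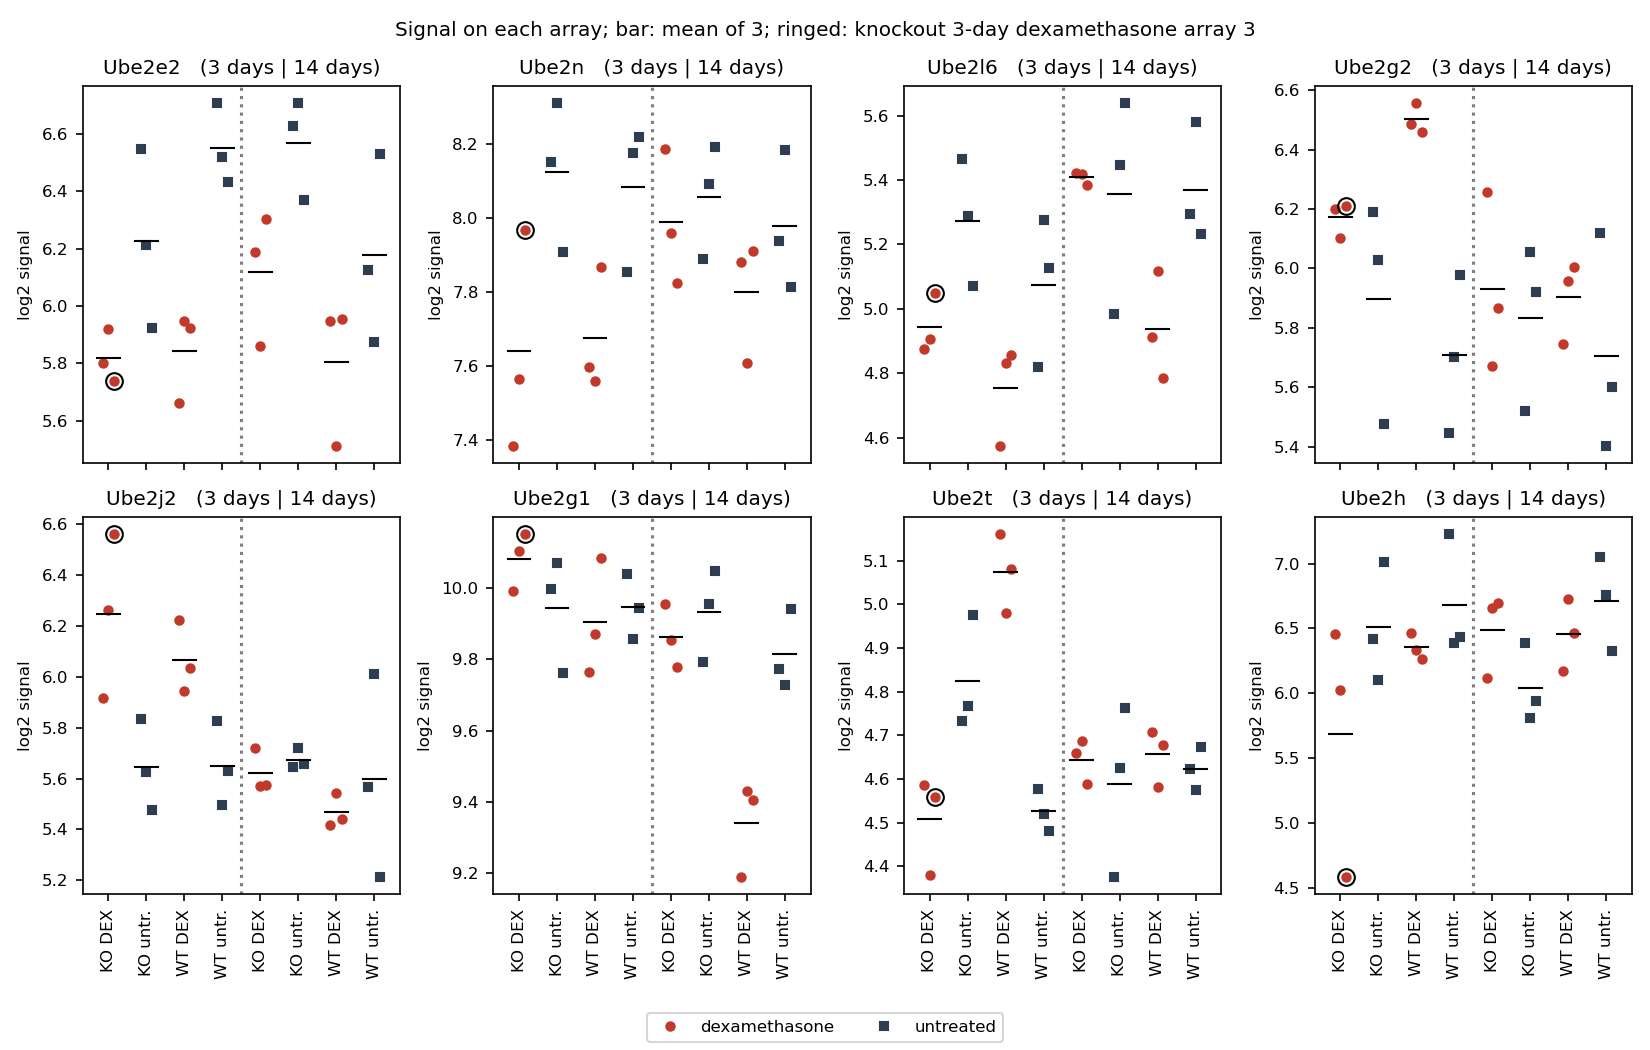
Each point is the log2 signal of 1 array for 8 genes, with 3 arrays in each of 8 groups, the bar their mean and the dotted line between the 3-day and 14-day arms; the knockout 3-day dexamethasone array that stood apart is ringed. Ube2e2 sits lower with dexamethasone at 3 days in both genotypes, Ube2g2 and Ube2t stand high in the WT DEX 3-day group, Ube2g1 stands low in the WT DEX 14-day group, and the ringed array of Ube2h reads 4.58.

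Of the 4 measured E2s that build the chains read by the proteasome, 1, Ube2g1, fell in wild type at 14 days, where 3% of all features passed. Ube2g1 at 14 days read 9.95, 9.86 and 9.78 in KO DEX, against 9.79, 9.96 and 10.05 in KO untreated muscle. In wild type mice of this arm it read 9.19, 9.43 and 9.41 with DEX and 9.77, 9.73 and 9.94 untreated. The 3 WT DEX arrays lay below all other 21 arrays. Ube2g1 at 3 days read 9.99, 10.10 and 10.15 in KO DEX, against 10.00, 10.07 and 9.76 in KO untreated muscle. The wild type read 9.76, 9.87 and 10.08 with DEX and 10.04, 9.86 and 9.95 untreated. These groups overlapped in both genotypes.

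The log2 fold change of Ube2g1 in wild type at 14 days was -0.47 (SE 0.129, adjusted p of limma 0.0446), and the other 2 kept probes gave -0.42 and -0.46. Leaving out 1 array ended this call in 16 of 24 cases, the value staying between -0.52 and -0.40. In the knockout the change was -0.07, and the difference between genotypes was 0.40 with an unadjusted p of limma of 0.037 and an adjusted p of 1. Knockout over wild type under dexamethasone at 14 days came to 0.52 (adjusted p of limma 0.0664), a comparison that shares its WT DEX arrays with the fall. All 3 probes of the gene read higher in the knockout there, at 0.52, 0.25 and 0.42.

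Ube2h works with the CTLH ligase complex and is abundant in maturing red cells. Ube2h at 3 days read 6.45, 6.03 and 4.58 in KO DEX, against 6.42, 6.10 and 7.01 in KO untreated muscle. The wild type values at this time were 6.46, 6.34 and 6.27 with DEX and 7.22, 6.39 and 6.43 untreated. The lowest value belonged to the array that stood apart. Ube2h at 14 days read 6.12, 6.66 and 6.70 in KO DEX, against 6.39, 5.81 and 5.94 in KO untreated muscle. Wild type muscle gave 6.17, 6.73 and 6.47 with DEX and 7.05, 6.76 and 6.33 untreated. The knockout change at 3 days was -0.82 with that array and -0.27 without it, and neither passed (adjusted p of limma 0.172 and 0.765). The averaged genotype change of Ube2h was -0.37 with an adjusted p of limma of 0.23, and without the array that stood apart it was -0.23 (adjusted p of limma 0.363).

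Red blood cell genes fell in the 3-day arm. Of 8 measured erythroid markers 4 fell at 3 days in each genotype and 0 fell at 14 days. Of all features 5.37% passed in the knockout and 3.87% in wild type at 3 days, and 3.27% and 3% in the same genotypes at 14 days. Hbb-bt, a beta-globin gene, had a log2 fold change of -2.66 in the knockout and -2.25 in wild type at 3 days. Their summed signal was 8436 to 11813 in KO DEX, against 43187 to 57763 in KO untreated arrays, and 7313 to 11585 in WT DEX, against 34575 to 58365 in WT untreated arrays. Ube2o, a large E2 with ligase activity of its own that is abundant in reticulocytes, changed by -0.05 in the knockout and 0.07 in wild type at 3 days, with neither change past the test. Ube2h gave -0.33 in wild type at that time, also not past the test. The part of red cells in these values was not tested. Ube2k and Ube2r2, the other chain-building E2s, did not pass in any comparison.

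Ube2n, which builds the chains used in signalling and DNA repair together with Ube2v1 or Ube2v2, fell in the average over dexamethasone pairs. Ube2n at 3 days read 7.38, 7.57 and 7.97 in KO DEX, against 8.15, 8.31 and 7.91 in KO untreated muscle. The 3-day wild type arrays read 7.60, 7.56 and 7.87 with DEX and 7.86, 8.18 and 8.22 untreated. Treated arrays were the lower ones in both genotypes, and the ranges overlapped by 1 array of each group. Ube2n at 14 days read 8.19, 7.96 and 7.82 in KO DEX, against 7.89, 8.09 and 8.19 in KO untreated muscle. The 14-day wild type arrays read 7.88, 7.61 and 7.91 with DEX and 7.94, 8.18 and 7.81 untreated. These ranges overlapped more widely.

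The averaged change of Ube2n was -0.28 (SE 0.0834, adjusted p of limma 0.0225), negative in all 4 pairs. The knockout change at 3 days was -0.48 (adjusted p of limma 0.0941), and without the array that stood apart it was -0.65 and passed (adjusted p of limma 0.0353). A second probe of Ube2n gave -0.12 in the average, not past the test. For its cofactor Ube2v1 the averaged change did not pass and was -0.04 with a 95% interval of -0.17 to 0.10.

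**Figure D3:**
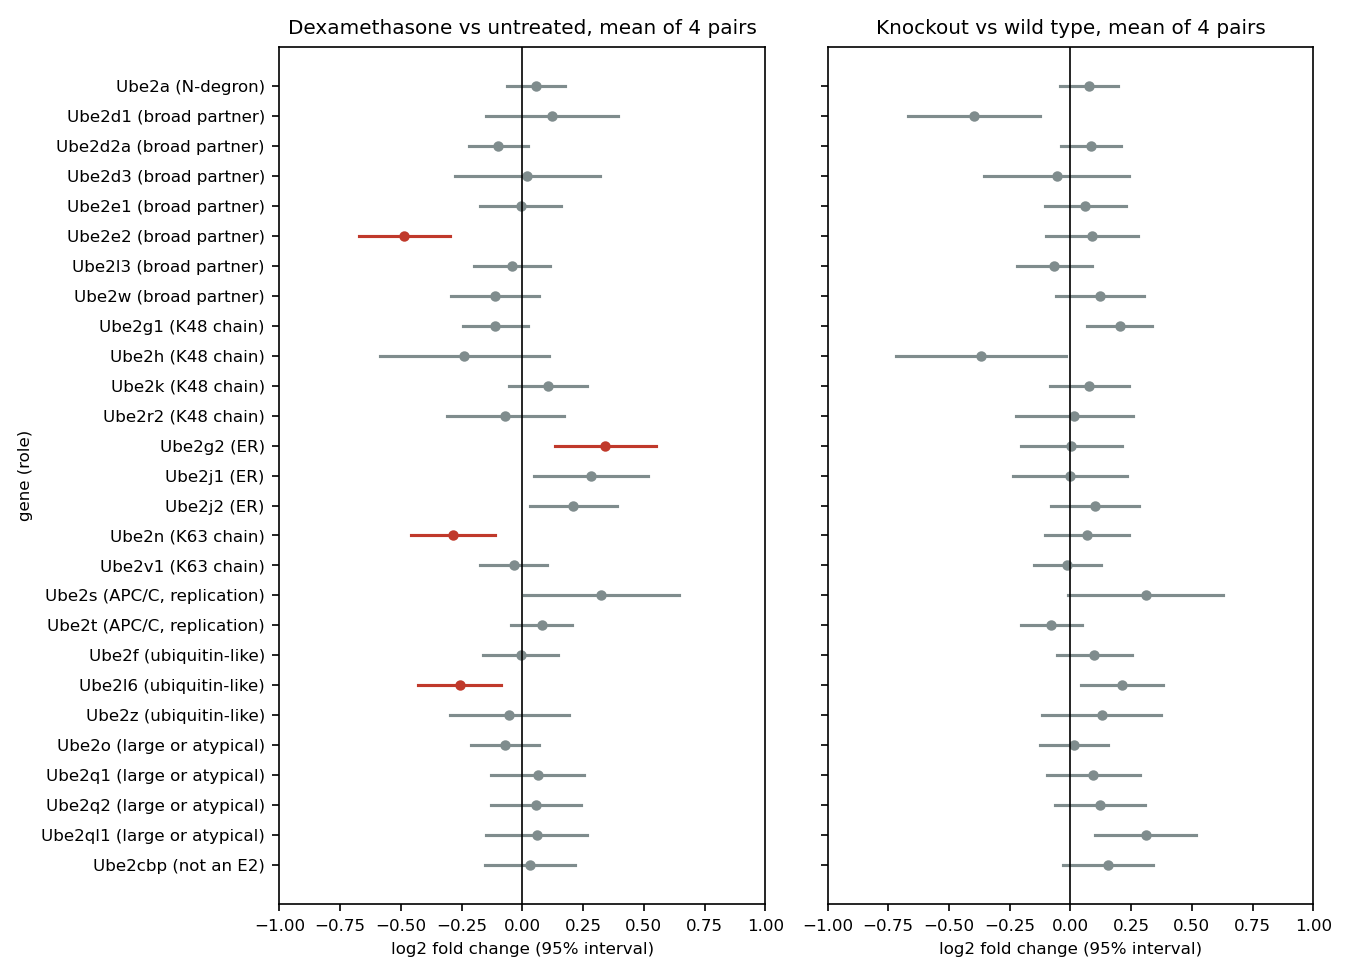
Points are log2 fold changes averaged over 4 pairs of groups, dexamethasone over untreated on the left and knockout over wild type on the right, with 95% intervals, for 27 genes ordered by role; the genes past an adjusted p of 0.05 are red. The 4 red genes, Ube2e2, Ube2g2, Ube2n and Ube2l6, are all on the left, and the 3 genes of the endoplasmic reticulum lie right of zero there.

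Among the 3 measured E2s of ubiquitin-like proteins 1, Ube2l6, fell in the averaged dexamethasone effect, where 7.3% of all features fell. Ube2l6 is the E2 of ISG15, an interferon-induced modifier, and is itself interferon-induced. Ube2l6 at 3 days read 4.87, 4.90 and 5.05 in KO DEX, against 5.47, 5.29 and 5.07 in KO untreated muscle. The wild type arrays gave 4.57, 4.83 and 4.86 with DEX and 4.82, 5.28 and 5.13 untreated. The treated arrays lay below the untreated ones in the knockout, and the ranges overlapped in wild type. Ube2l6 at 14 days read 5.42, 5.42 and 5.39 in KO DEX, against 4.98, 5.45 and 5.64 in KO untreated muscle. The wild type arrays of this arm gave 4.91, 5.12 and 4.78 with DEX and 5.29, 5.58 and 5.23 untreated. The treated arrays lay below the untreated ones in wild type and inside their range in the knockout.

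The averaged change of Ube2l6 was -0.26 (SE 0.0821, adjusted p of limma 0.0378), negative in 3 of 4 pairs, and leaving out 1 array ended the call in 15 of 24 cases. The authors' value table, no background correction and no detection filter ended it too (adjusted p of limma up to 0.0967). Of 8 measured interferon-stimulated genes 4 fell in the same average. Their log2 fold changes were -0.71 for Ifit3, -0.57 for Psmb8, -0.46 for Psmb9 and -0.37 for Igtp. Uba7, the E1 that hands ISG15 to Ube2l6, read -0.39 with an adjusted p of limma of 0.0623 and did not pass. Markers of macrophages moved as well, with 6 of 11 measured lower in the average, and 7.3% of all features were lower. Their summed signal at 14 days was 1309 to 1482 in KO DEX, against 1911 to 2475 in KO untreated arrays, and 1334 to 1498 in WT DEX, against 1501 to 2478 in WT untreated arrays. At 3 days the macrophage sum was 1233 to 1454 in KO DEX and 1613 to 1964 in KO untreated arrays. In wild type at 3 days it was 1025 to 1147 with DEX and 1209 to 1608 untreated. Fibroblast markers were lower for 8 of 10, and their summed signal at 14 days was 6553 to 7517 in KO DEX, against 9015 to 11904 in KO untreated arrays, and 6273 to 8367 in WT DEX, against 8321 to 12516 in WT untreated arrays. At 3 days the fibroblast sum was 6953 to 7602 in KO DEX and 8307 to 10407 in KO untreated arrays. In wild type at 3 days it was 6471 to 8117 with DEX and 8751 to 9197 untreated. Adipocyte marker sums at 3 days were 856 to 1132 in KO DEX and 580 to 774 in KO untreated arrays. In wild type they were then 922 to 1008 with DEX and 577 to 850 untreated. At 14 days they were 828 to 2548 against 697 to 1160 in the knockout, and 1616 to 2752 against 743 to 1295 in wild type. Endothelial marker sums overlapped between DEX and untreated arrays in each pair of groups. The part of any of these cells in the falls of Ube2l6, Ube2n and Ube2e2 was not tested. Ube2f, an E2 of NEDD8, and Ube2z, which is charged by Uba6, did not pass in any comparison with their brightest probe.

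Ube2t, which ubiquitinates the Fanconi anaemia proteins, was detected on 7 of 24 arrays and passed the filter through 2 groups, the WT DEX and KO untreated arrays at 3 days. Ube2t at 3 days read 4.59, 4.38 and 4.56 in KO DEX, against 4.73, 4.77 and 4.98 in KO untreated muscle. The wild type muscle of this arm read 5.16, 4.98 and 5.08 with DEX and 4.58, 4.52 and 4.48 untreated. Dexamethasone arrays were thus the lower ones in the knockout and the higher ones in wild type. Ube2t at 14 days read 4.66, 4.69 and 4.59 in KO DEX, against 4.37, 4.63 and 4.76 in KO untreated muscle. The wild type muscle of the later arm read 4.71, 4.58 and 4.68 with DEX and 4.62, 4.57 and 4.67 untreated. At 14 days 1 of the 12 arrays detected the probe.

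In wild type at 3 days Ube2t was detected on 3 of 3 DEX arrays and 0 of 3 untreated arrays. It was at least 1.32-fold higher with DEX (measured means 5.07 ± 0.0902 (SD, n = 3) and 4.53 ± 0.0489 (SD, n = 3), adjusted p of limma 0.00785). This bound used, on each untreated array, the lowest signal of any probe with a detection p under 0.05, a value at the edge of detection. Where the signal of Ube2t itself was higher, that was used. Such a bound compares means and makes no allowance for the spread of the arrays, so it is not a confidence limit. Under dexamethasone at 3 days Ube2t was detected on 0 of 3 knockout and 3 of 3 wild type arrays, and knockout was at least 1.20-fold lower on the same kind of bound (measured means 4.51 ± 0.112 (SD, n = 3) and 5.07 ± 0.0902 (SD, n = 3), adjusted p of limma 0.0286). Both tests share the WT DEX arrays, which also helped the probe pass the detection filter, so filter and tests are not independent. The first lost its call without WT DEX array 1 (adjusted p of limma 0.0523) and with the authors' value table (0.0542). The second lost its call on leaving out any 1 of 5 of its 6 arrays, the one that stood apart among them (adjusted p of limma 0.0559 to 0.167), with the authors' value table (0.137) and without background correction (0.0559).

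Ube2s extends chains for the anaphase-promoting complex and was detected on 15 of 24 arrays. Ube2s at 3 days read 6.06, 5.29 and 6.24 in KO DEX, against 4.66, 5.84 and 4.74 in KO untreated muscle. The wild type gave 4.60, 4.95 and 5.22 with DEX and 4.30, 4.70 and 4.79 untreated at this time. The 3 KO DEX arrays lay above the 3 WT DEX arrays. Ube2s at 14 days read 4.33, 5.39 and 4.83 in KO DEX, against 4.90, 4.38 and 4.32 in KO untreated muscle. The wild type gave 5.04, 4.30 and 4.84 with DEX and 4.89, 5.15 and 4.50 untreated at 14 days. Knockout over wild type under dexamethasone at 3 days was 0.94 (SE 0.309, adjusted p of limma 0.208), and the averaged changes were 0.33 for dexamethasone and 0.31 for knockout, none past the test. Without the array that stood apart the first of these was 0.75 (adjusted p of limma 0.512). Of 6 measured cell cycle genes, Aurka fell by 0.57 log2 units in the averaged dexamethasone effect and the other 5 did not pass, where 13.1% of all features passed. On any array 3 or 4 of these 6 genes were detected, so part of this list read near background.

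**Figure D4:**
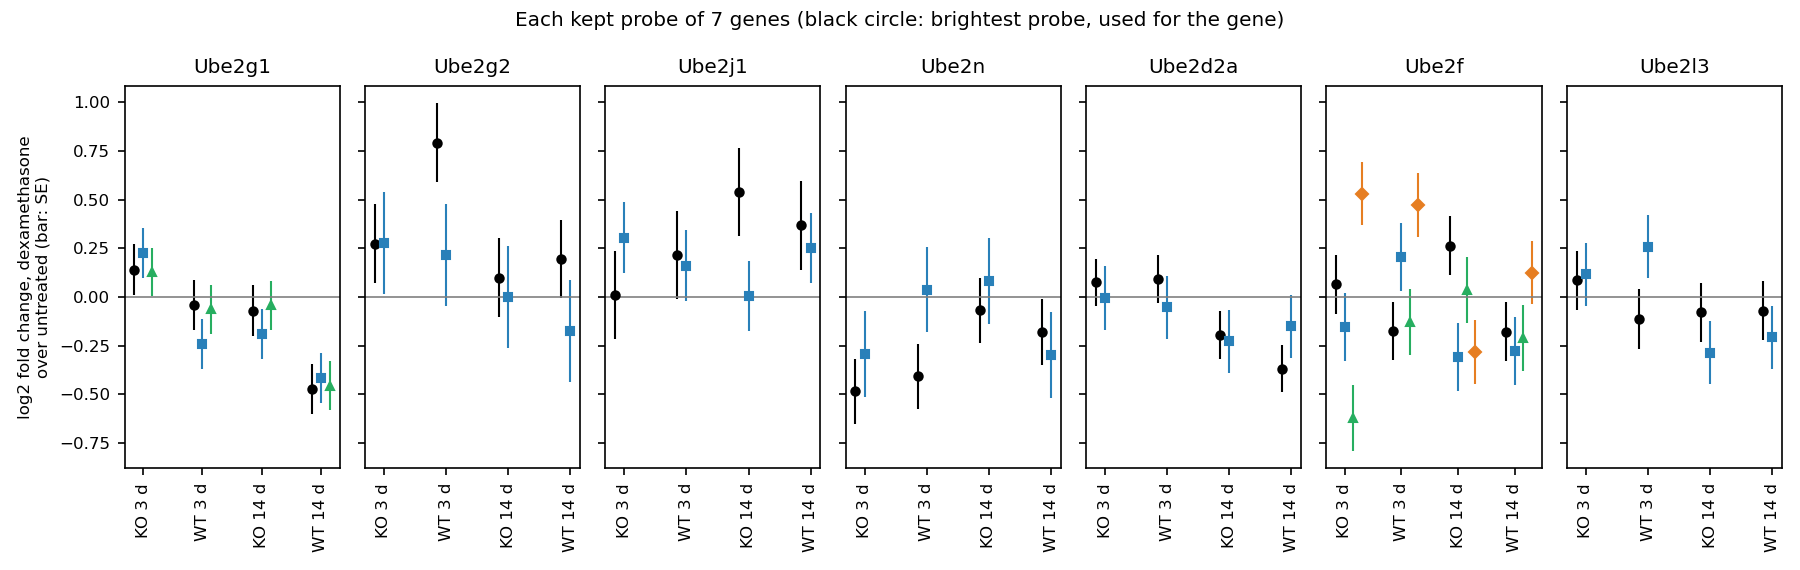
Log2 fold changes of dexamethasone over untreated in the 4 pairs of groups for every kept probe of 7 genes, with the SE of limma as bars; black circles are the brightest probe, which stands for the gene. The 3 probes of Ube2g1 lie together at 14 days in wild type, the second probes of Ube2g2 and Ube2n lie nearer zero than the brightest ones at 3 days in wild type, and the 4 probes of Ube2f lie on both sides of zero.

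The remaining members showed no call. Ube2a, which marks proteins with destabilizing N termini, changed by 0.06 in the averaged dexamethasone effect, with a 95% interval of -0.06 to 0.18. Its twin Ube2b, long followed in muscle wasting, had no kept probe and so no value. The 4 large or atypical E2s, Ube2o, Ube2q1, Ube2q2 and Ube2ql1, had averaged dexamethasone changes between -0.07 and 0.06. Ube2ql1, which in human cells acts on damaged lysosomes, had the second largest knockout difference of the 27 genes under dexamethasone at 14 days, 0.69 (adjusted p of limma 0.126). The largest there was that of Ube2d1, -0.73 (adjusted p of limma 0.244). Ube2cbp did not pass in any comparison.

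Genes of the steps before and after the E2s were counted in the same way. None of 7 measured E1 genes passed in any of the 14 comparisons of limma, where 13.1% of all features passed in the averaged dexamethasone effect. In that average 2 of the E1 genes had an unadjusted p under 0.05, a looser threshold for which no share of all features is given here. Of 8 E2s and E2 variants with symbols outside Ube2, Cdc34 among them, Atg10, the E2-like enzyme of autophagy, fell by 0.23 log2 units in the averaged dexamethasone effect (adjusted p of limma 0.0185) and the other 7 did not pass there. Of 4 measured genes of ubiquitin-like proteins, Fau rose by 0.19 in that average (adjusted p of limma 0.0374), and Sumo3 fell by 0.62 in the knockout at 14 days (adjusted p of limma 0.0236). Of 16 E3 ligases of muscle protein turnover, 4 rose in the average and none fell, where 5.84% of all features rose and 7.3% fell. Fbxo32, which encodes atrogin-1, rose by 1.62 (adjusted p of limma 2.96e-10), and Asb2 rose by 0.48 (adjusted p of limma 5.79e-05). Trim63 rose in wild type, by 1.10 at 3 days and 1.63 at 14 days. The largest averaged dexamethasone change of any Ube2 gene, that of Ube2e2, was -0.49. In the single wild type pairs, the measure given for Trim63, the largest were 0.79 at 3 days (Ube2g2) and 0.50 at 14 days (Ube2d1).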

How the data were processed

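Muscle RNA from 24 samples was converted to biotinylated cRNA for Illumina arrays, per the labels' protocols. Per the file headers, the deposited non-normalized table holds for each probe and array an average intensity and a detection p-value. The authors' value table, also deposited, held linear intensity values and was used only as an alternative, with values under 16 set to 16. The submitters' processing notes name BeadStudio 3.2.3 without saying what it did.

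Background correction from the detection p-values, quantile normalization and log2 transformation were done with neqc (offset 16; limma 3.58.1, R 4.3.3). Probes with a detection p under 0.05 on at least 3 arrays were kept, and the brightest kept probe stood for a gene. Of all probes 29976 had 1 symbol, 10 had several and 16646 had none. A model with 8 group means (16 residual degrees of freedom) gave 14 contrasts, adjusted by Benjamini and Hochberg over 16262 features with a threshold of 0.05. The procedure was tested on simulated data. The text numbers arrays as the non-normalized table does. In 5 groups the value table numbers them differently.

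The Ube2 genes, their roles and the further gene lists were chosen with earlier results of these data known. Every Ube2 gene was accounted for, and values on every array are given for genes past the threshold in any contrast, the 3 largest averaged changes for dexamethasone and for knockout, and Ube2d2a, Ube2e1, Ube2g1, Ube2j1, Ube2j2 and Ube2l3. Alternatives were the value table, no background correction, no detection filter, the mean of kept probes, a replicate block, array weights and leaving out each array. The number of arrays limits the precision.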

Additional observations from a re-analysis of the deposited data

How the results depend on the processing

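The 10 named fold changes, each past the threshold, were recomputed under 31 alternatives. Direction was kept in all 310 values, and the call in 234. Of the 31 alternatives 24 left out 1 array. Leaving out an array outside the compared groups cannot change a fold change, so many of these directions were fixed in advance. Ube2e2 in the averaged dexamethasone effect was called under all 31. Leaving out 1 array moved the count of Ube2 genes called to between 0 and 3 for dexamethasone in the knockout and in wild type at 3 days, 0 and 1 in wild type at 14 days, 2 and 5 in the average, 0 and 1 for knockout under dexamethasone at 3 days, and 0 and 3 for the averaged knockout effect, and it stayed at 0 elsewhere.

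With the authors' value table the counts were 0 for dexamethasone in the knockout and 1 in wild type at 3 days, 2 in wild type at 14 days, 0 and 1 for knockout under dexamethasone at 3 and 14 days, and 1 for the averaged knockout effect. Without background correction they were 2 for dexamethasone in wild type at 14 days, 0 and 1 for knockout under dexamethasone at 3 and 14 days, and 1 for the averaged knockout effect. Without the detection filter they were 0 for dexamethasone in the knockout at 3 days, 2 in wild type at 14 days, 2 in the average, 1 for knockout under dexamethasone at 14 days, 1 for the averaged knockout effect and 1 for the genotype difference of the dexamethasone effect at 3 days. Array weights gave 5 and 6 for dexamethasone in the knockout and wild type at 3 days, 2 in the knockout at 14 days, 4 for knockout in the untreated 14-day arm, 1 under dexamethasone at 14 days, 5 for the averaged knockout effect, and 1 each for the genotype difference at 3 days and the time difference in the knockout. The cause was not tested. Shares of all features called under these alternatives are not given here. The counts in this section thus cannot be read as particular to the Ube2 genes. The mean of kept probes ended the calls of Ube2g2 and Ube2n in the averaged dexamethasone effect and that of Ube2g2 in wild type at 3 days.

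Replicate numbers did not pair the arrays: the median correlation of same-numbered deviations was 0.01 and the range -0.47 to 0.50. With the replicate number as a block the counts were 0 for dexamethasone in the knockout at 3 days and 0 in wild type at 14 days. With the value table's numbers as the block, an alternative added after seeing the data, they were 2 for dexamethasone in the knockout at 3 days and 1 for the averaged knockout effect.

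Signal near background limits Ube2r2, Ube2s, Ube2t and Ube2w, which were detected on 7, 15, 7 and 5 of 24 arrays. Ube2l6 and Ube2z, detected on 23 and 20 arrays, also read low. Their mean raw signal was 109.9 each, beside 105.1 for Ube2s.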

Other observations

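The 4 kept probes of Ube2f, an E2 of the ubiquitin-like protein NEDD8, differed from each other. With dexamethasone against no treatment in the knockout at 3 days the brightest probe gave a log2 fold change of 0.07, and the other 3 gave 0.53, -0.15 and -0.62. The last of these passed when all 20769 kept probes were fitted singly (adjusted p of limma 0.0314), and the probe was detected on 16 of 24 arrays.

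Across the 27 Ube2 genes the dexamethasone changes of knockout and wild type had a Pearson correlation of 0.57 at 3 days and 0.33 at 14 days, beside 0.64 and 0.59 over all 16262 features. The 2 comparisons of each pair share no array, but all come from 1 set of normalized arrays, and genes are not independent replicates. The changes at 14 and 3 days correlated at -0.10 in the knockout and 0.26 in wild type over the Ube2 genes, beside 0.23 and 0.46 over all features.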
